A study of Mus musculus with 12 samples.

Results

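Cholesterol synthesis and its control by SREBP2 were followed through 8 genes taken from a list of symbols: Hmgcs1, Idi1, Fdps, Sqle, Lss and Cyp51, which encode enzymes of the pathway, and Insig1 and Srebf2, which encode regulators of it. All 8 were measured, out of 18194 genes on the array. The list follows the pathway and its rule uses no measured value, but it was drawn up with earlier results of these data known. No filter on dim genes was applied, so all 8 entered every test. They have 19 probe sets that name only 1 of them, and the brightest probe set of each gene gave its value.

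SREBP2, the product of Srebf2, is held in the endoplasmic reticulum by Scap and the Insig proteins while sterols are plentiful. When sterols run low it is carried to the Golgi, cut free and moved to the nucleus, where it turns on the genes of the whole pathway from acetyl-CoA to cholesterol, and Insig1 as well. Fat cells hold much of the body's free cholesterol, around and within their lipid droplets, but make little of it compared with the liver.

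For 12 mouse samples, total RNA was read on 1 array each, in 6 groups of 2 samples, lettered a and b. Both wild-type C57BL/6 mice and mice labelled Smad3-/- were studied on regular diet and on high fat diet, with 55% fat. Smad3 is a transcription factor of the TGF-beta pathway, and the labels cite a targeted disruption for these mice and give their strain as mixed, from NIH Black Swiss females (Taconic) and C57BL/6, so genotype and strain cannot be told apart. In a second experiment, C57J/B6 mice with obesity from the diet were given control IgG (13C4) or an antibody against TGF-beta (1D11) over 8 weeks, with 3 injections a week into the peritoneum, and both of those groups share the high fat diet. The labels give neither age nor tissue, and nothing states whether a and b are different animals. The p-values then cover only the spread between arrays, which may be technical.

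Array medians were 6.32 to 6.39 log2 units in the first experiment and 6.03 to 6.04 in the second, where the SD over probe sets was also larger (2.15 to 2.17 against 1.64 to 1.74). Levels were therefore not compared between the experiments. Arrays a and b of each group had a correlation over genes of 0.992 to 0.996. Adipoq, the fat-cell hormone adiponectin, lay between 13.01 and 14.18 on all 12 arrays. The brightest of 3 Smad3 probe sets read 8.86 to 8.95 on the 4 wild-type arrays and 9.03 to 9.17 on the 4 arrays labelled Smad3-/-. The position of these probes relative to the disrupted part was not analysed here, so this neither checks the label nor goes against it.

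Markers of other tissues differed widely between groups, given here as the mean log2 level of each list on arrays a and b. Skeletal muscle markers (8 of 8 measured, such as Ckm) averaged 7.16 and 7.00 in wild type on regular diet, 5.92 and 5.79 in wild type on high fat diet, 7.13 and 7.06 in Smad3-/- on regular diet and 11.22 and 11.35 in Smad3-/- on high fat diet. Epididymis and testis markers (7 of 8) averaged 5.71 and 5.59, 8.58 and 8.70, 11.15 and 11.18, and 7.02 and 7.29 in the same order. Smooth muscle markers (6 of 6) averaged 12.12 and 12.07 in wild type on regular diet and between 8.30 and 9.51 on the other 6 arrays of that experiment. White adipocyte markers (8 of 10) averaged 11.44 and 11.31 in Smad3-/- on regular diet and 12.39 to 12.72 on the other 6. In such mixed samples, fewer cells of a type and less RNA per cell cannot be told apart.

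Promoter sequence was read because most of the 8 genes fell together under the antibody, as described further on. RefSeq windows on GRCm38.p6, from 250 bases before to 50 after the annotated start, were found for 6 of the 8 genes; Fdps and Sqle had no entry. The letters searched on both strands were TCACNCCAC, the core of a sterol regulatory element, CCAAT, the box bound by NF-Y, and GGGCGG, the GC box bound by Sp1. The 250 bases before the start are shown for the first enzyme of the group, for the enzymes Idi1 and Cyp51 with their close CCAAT boxes, and for Insig1, whose level moved with diet. They lie at chr13:119690101-119690350 (plus strand) for Hmgcs1, chr13:8885356-8885605 (plus) for Idi1, chr5:4104698-4104947 (minus) for Cyp51 and chr5:28071162-28071411 (plus) for Insig1. Each is written 5′ to 3′ on the strand of the gene, with the element core and the CCAAT boxes (ATTGG where they lie on the other strand) in capitals.
Hmgcs1: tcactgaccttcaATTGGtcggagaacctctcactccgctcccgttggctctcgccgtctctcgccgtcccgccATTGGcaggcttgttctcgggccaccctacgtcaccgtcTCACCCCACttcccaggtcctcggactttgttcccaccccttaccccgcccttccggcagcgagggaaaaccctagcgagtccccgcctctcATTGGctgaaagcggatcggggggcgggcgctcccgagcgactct
Idi1: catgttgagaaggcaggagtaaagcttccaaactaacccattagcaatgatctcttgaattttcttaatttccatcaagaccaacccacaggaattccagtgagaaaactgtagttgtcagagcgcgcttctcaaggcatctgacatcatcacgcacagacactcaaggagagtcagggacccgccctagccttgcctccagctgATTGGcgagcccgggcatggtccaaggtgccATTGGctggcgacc
Cyp51: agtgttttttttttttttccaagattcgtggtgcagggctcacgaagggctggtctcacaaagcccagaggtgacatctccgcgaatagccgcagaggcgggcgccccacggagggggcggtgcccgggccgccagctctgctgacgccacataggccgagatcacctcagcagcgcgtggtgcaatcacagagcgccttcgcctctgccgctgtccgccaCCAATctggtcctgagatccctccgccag
Insig1: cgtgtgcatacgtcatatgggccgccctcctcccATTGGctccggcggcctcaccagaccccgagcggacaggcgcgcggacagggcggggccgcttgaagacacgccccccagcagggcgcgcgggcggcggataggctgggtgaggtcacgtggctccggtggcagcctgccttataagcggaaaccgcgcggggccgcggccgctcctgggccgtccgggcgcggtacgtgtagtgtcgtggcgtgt
The element core stood in 1 of the 6 windows, that of Hmgcs1, where TCACCCCAC began 137 bases before the start, and in 1.24% of all 32851 windows of the table. CCAAT stood in 6 of 6 and in 37.41% of all windows, and GGGCGG in 6 of 6 and in 35.66%. Hmgcs1 had 4 CCAAT boxes, 1 of them after the start, Idi1 had 2, and Lss, Cyp51, Insig1 and Srebf2 had 1 each. Among 12 other sterol enzymes measured, 11 had a window, with CCAAT in 11, GGGCGG in 10 and the element core in 0. A match is a description of the letters and no match says nothing about binding, since these elements vary in sequence and may lie outside the window.

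In obese mice the antibody against TGF-beta went with lower levels of 7 of the 8 genes, all 6 enzymes and Insig1, while 0 were higher. In limma 24.3% of all genes were called at an adjusted p under 0.05, with 11.7% higher and 12.6% lower. The median of the 8 log2 differences was -1.004 against -0.003 over all genes. The falls were about 3-fold for Fdps, Lss and Cyp51, and smaller for Idi1, Insig1, Sqle and Hmgcs1.

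Hmgcs1, which condenses acetyl-CoA into the precursor of mevalonate, read 11.94 and 11.80 with IgG and 11.20 and 11.23 with the antibody, a difference of -0.66 ± 0.13 (SE, n = 2 per group; limma adjusted p = 0.000335). Idi1, which makes the reactive isoprene unit, read 8.78 on both IgG arrays and 7.55 and 7.69 with the antibody. Its fall by 1.16 ± 0.14 corresponds to a 2.23-fold lower level (limma adjusted p = 1.77e-07). Fdps, which joins these units into farnesyl diphosphate at the branch to sterols and protein prenylation, read 10.10 and 9.95 against 8.42 and 8.41. It was 3.06-fold lower (-1.61 ± 0.12, limma adjusted p = 2.72e-11), and by -0.89 with the mean of its probe sets, still called. For each of these 3 genes both antibody arrays lay below both IgG arrays.

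The enzymes committed to sterols fell too. Sqle, squalene epoxidase and a controlled step of the pathway, read 8.60 and 8.65 with IgG and 7.91 and 7.83 with the antibody (-0.75 ± 0.11, limma adjusted p = 3.9e-06). Lss, which closes the sterol rings, read 9.47 and 9.39 against 7.95 and 7.28, a 3.52-fold lower level (-1.82 ± 0.15, limma adjusted p = 3e-10). The antibody arrays of Lss lay 0.67 apart, more than the pairs of the other 7 genes in this experiment, yet both were below both IgG arrays. Cyp51, the lanosterol demethylase, read 9.03 and 8.93 against 7.46 and 7.43 and was 2.91-fold lower (-1.54 ± 0.15, limma adjusted p = 7.34e-09).

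Insig1, the sterol-regulated brake on SREBP transport, read 10.99 and 11.22 with IgG and 10.26 and 10.27 with the antibody (-0.85 ± 0.12, limma adjusted p = 3.06e-06), with no overlap. Srebf2 itself read 8.15 and 7.93 against 7.97 and 7.85. These arrays overlapped, and its difference of -0.14 ± 0.12 (95% interval -0.38 to 0.11) did not pass (limma adjusted p = 0.458). Leaving out any one array left all 7 calls in place.

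**Figure D1:**
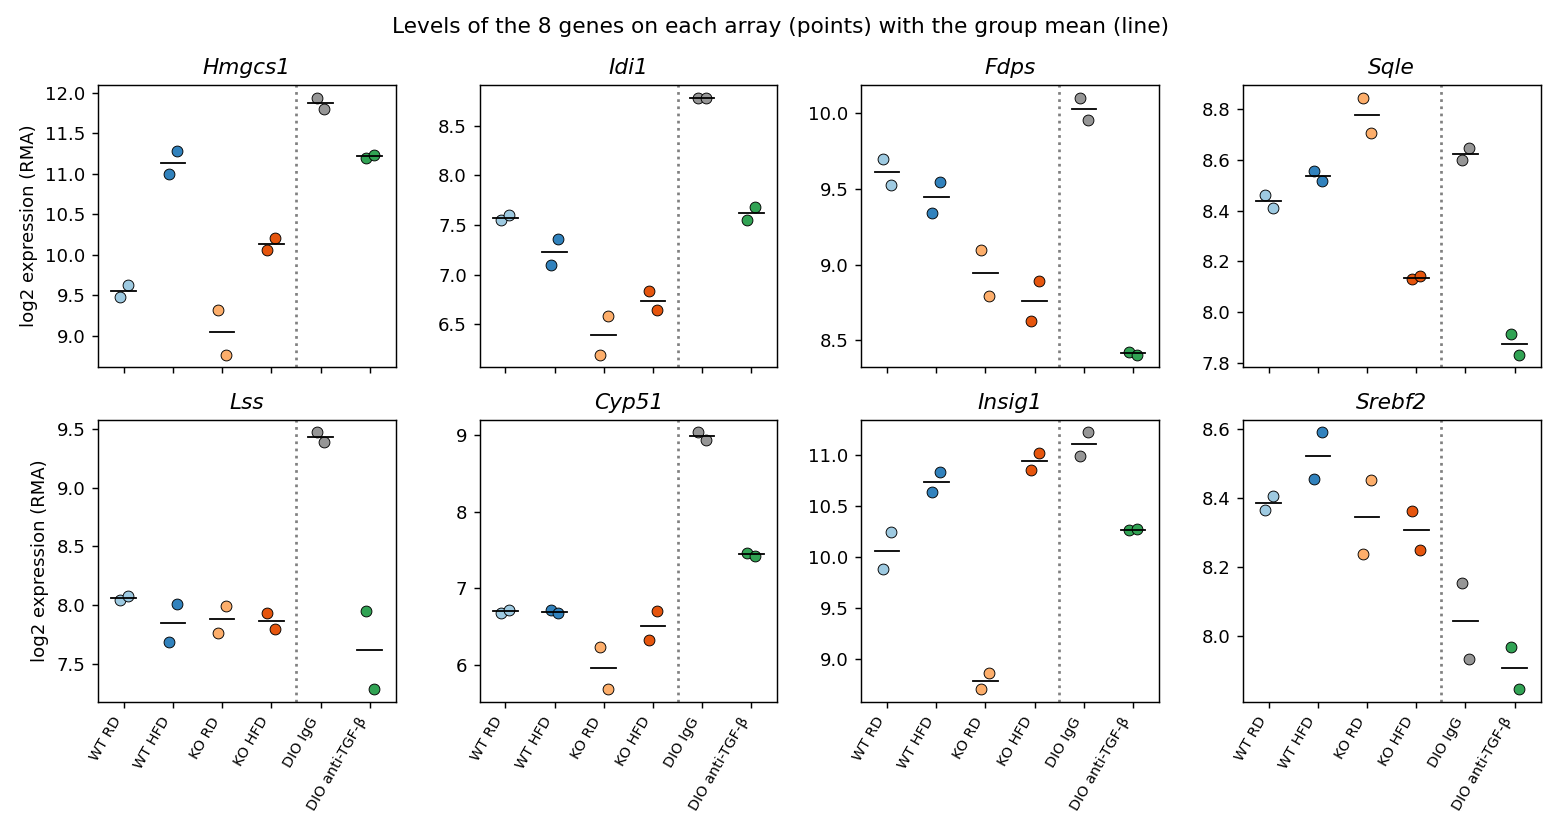
Log2 expression (RMA) of the 8 genes on each array (points) with the group mean (line), for wild type (WT) and Smad3-/- (KO) on regular (RD) or high fat diet (HFD), and for diet-induced obese mice (DIO) given IgG or the antibody against TGF-beta. The dotted line parts the experiments, whose levels are not compared, and each panel has its own axis. Antibody points lie below both IgG points in every panel other than Srebf2.

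The rest of the pathway moved the same way. Of 15 further sterol enzymes listed, 12 were measured, and under the antibody 10 were lower, 1 was higher and 1 did not pass, with a median of -0.78. Over all genes 12.6% were called lower and 11.7% higher. Nsdhl, which helps remove the C4 methyl groups, fell by 1.30 ± 0.12 (limma adjusted p = 1.02e-09). Dhcr7, the last reductase on the way to cholesterol, fell by 1.49 ± 0.17 (9.21e-08), and Sc5d, the desaturase before it, by 0.85 ± 0.10 (1.55e-07). Fdft1, squalene synthase, was the one enzyme that rose (0.62 ± 0.13, limma adjusted p = 0.000534), although it stands between Fdps and Sqle in the pathway. A second bright probe set gave 0.93, and 2 dim ones gave -0.33 and -0.12, neither called. Fdft1 is named after its value was seen, as the only gene of its direction.

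Over all genes 11.7% were called higher and 12.6% lower under the antibody. Genes of sterol uptake and trafficking were also mostly lower, with 6 of 8 measured down and 1 up, Aacs (0.27, limma adjusted p = 0.0477), named after its value was seen. Lipa, the lysosomal acid lipase, fell by 1.29, Rdh11, a retinol dehydrogenase under SREBP control, by 0.96, and Tmem97, a binder of the sterol transporter NPC1, by 0.83. Of 8 measured genes of SREBP processing and sterol sensing, 0 were lower and 1 was higher, near the 11.7% called higher over all genes. That gene was Insig2, the other Insig, at 0.55 ± 0.12 (limma adjusted p = 0.00079), opposite in sign to Insig1. Scap (0.19 ± 0.12, adjusted p = 0.298) and Srebf1 (0.08 ± 0.11, adjusted p = 0.67) did not pass in limma, but with the mean of its probe sets Scap was called higher (0.36, adjusted p = 0.0089). In the isoprenoid branch, which leads from farnesyl diphosphate to dolichol and to prenylated proteins, 0 of 8 genes were called by limma in the antibody comparison, and 0 had an unadjusted p under 0.05.

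**Figure D2:**
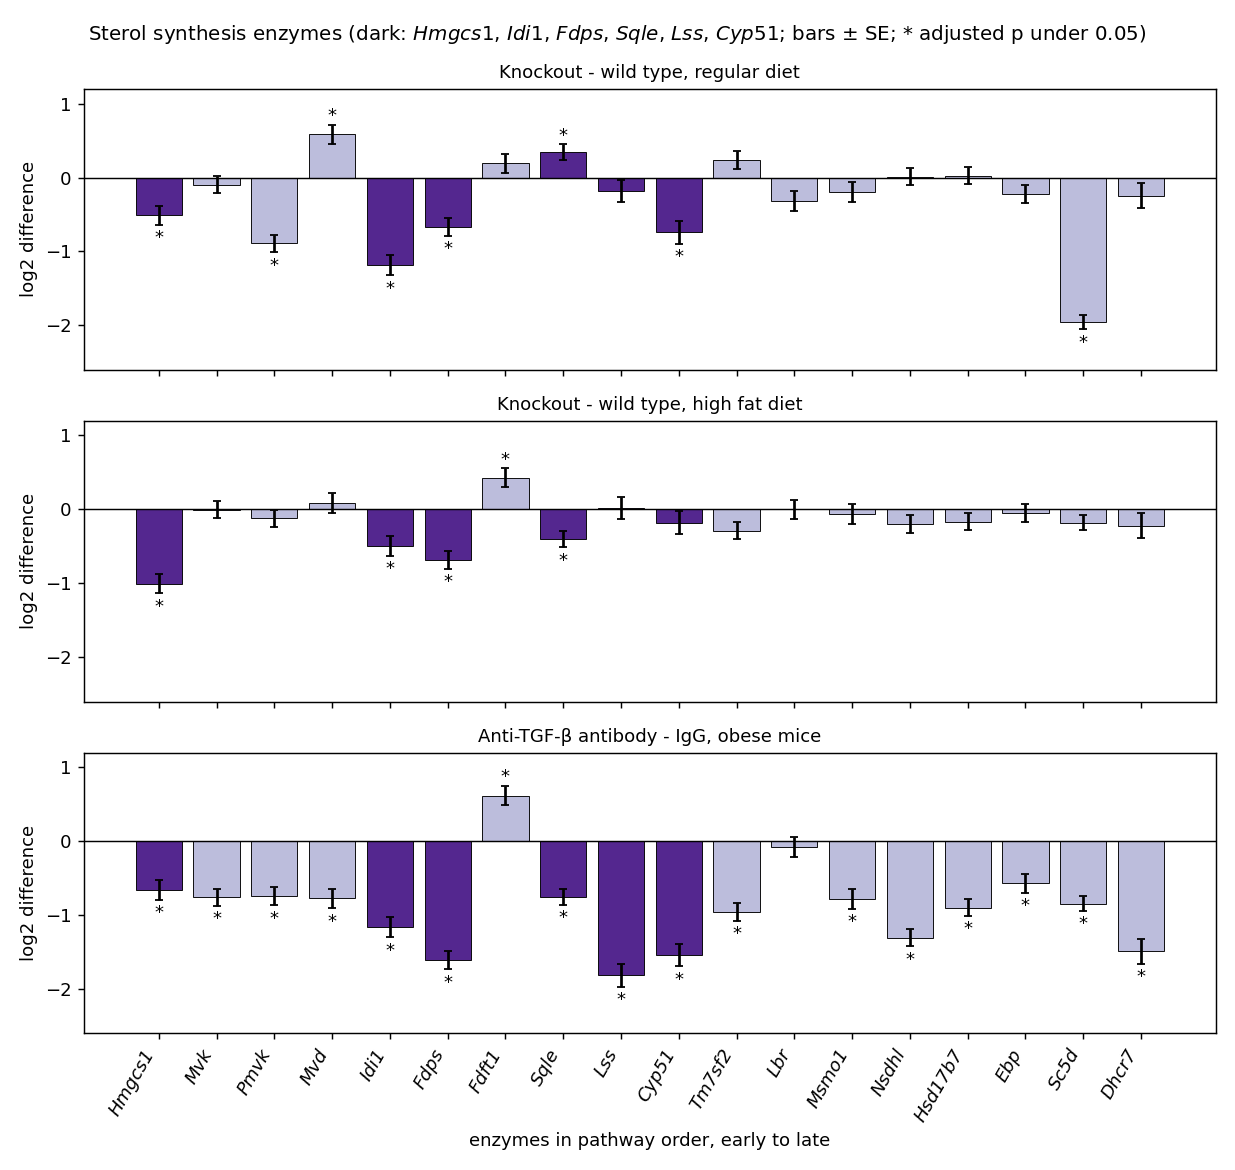
Log2 differences ± SE (bars and whiskers) of 18 sterol enzymes in pathway order, for Smad3-/- minus wild type on each diet and for antibody minus IgG. Stars mark adjusted p under 0.05 in limma, and dark bars are the 6 enzymes among the 8 genes. With the antibody, 16 of 18 enzymes carry a star below 0 and Fdft1 carries one above it.

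Cell markers differed between the same arrays. Macrophage markers (8 of 8 measured) averaged 11.33 and 11.30 with IgG and 9.53 and 9.57 with the antibody, and 8 of 8 were lower. Hepatocyte markers (5 of 6) averaged 8.23 and 8.25 against 6.09 and 6.05, with 4 of 5 lower, Alb among them at 10.50 and 10.53 against 7.16 and 7.48. Skeletal muscle markers averaged 5.65 and 5.64 with IgG and 11.53 on both antibody arrays, with 8 of 8 higher, and brown adipocyte markers 6.52 and 6.57 against 9.21 and 9.28, with 7 of 8 higher. Smooth muscle markers averaged 9.10 and 9.05 against 9.90 and 9.94, with 5 of 6 higher. White adipocyte markers averaged 12.64 to 12.68 on all 4 arrays, with 4 of 8 higher and 1 lower, the hormone gene Lep (-1.89). The part of these cells in the sterol gene result was not tested.

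On the regular diet, the arrays labelled Smad3-/- also had lower sterol genes than wild type, though less evenly. Hmgcs1, Idi1, Fdps, Cyp51 and Insig1 were lower, Sqle was higher, and Lss and Srebf2 did not pass. Thus 5 of 8 were lower and 1 higher, where limma called 24.0% of all genes, 8.40% higher and 15.6% lower. The median difference was -0.59 against 0.04 over all genes. Under quantile normalization over all 12 arrays the split of all calls moved from 1528 higher and 2833 lower to 2438 and 2572.

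Insig1 and Idi1 differed most. Insig1 read 9.88 and 10.24 in wild type and 8.70 and 8.86 in Smad3-/-, 2.43-fold lower (-1.28 ± 0.12, limma adjusted p = 1.31e-09). Idi1 read 7.55 and 7.60 against 6.19 and 6.59, 2.27-fold lower (-1.19 ± 0.14, limma adjusted p = 7.82e-08). In both, all Smad3-/- arrays were below the wild-type arrays. Fdps read 9.70 and 9.52 against 9.10 and 8.79, without overlap (-0.67 ± 0.12, limma adjusted p = 8.92e-05). With the mean of its probe sets the Fdps difference was -0.36 and after quantile normalization -0.41, called in both.

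Cyp51 was dim in this experiment, at the 19.6th to 42.7th percentile of genes. It read 6.68 and 6.71 in wild type and 6.23 and 5.68 in Smad3-/- (-0.74 ± 0.15, limma adjusted p = 0.00042), and without the second Smad3-/- array the difference was -0.47, still called. Its dimmer probe sets differed less, and their mean with the brightest gave -0.31. Hmgcs1 read 9.48 and 9.62 against 9.31 and 8.77 (-0.51 ± 0.13, limma adjusted p = 0.0039). That call was lost without wild-type array b (adjusted p = 0.0646) or Smad3-/- array b (-0.24, adjusted p = 0.22), and after quantile normalization (-0.26, adjusted p = 0.0977). Without Smad3-/- array a the difference was -0.78, still called. Other bright probe sets of Hmgcs1 gave -0.54, -0.56 and -0.89, each called in limma, and a dim one gave 0.26, not called.

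Sqle went the other way, at 8.46 and 8.41 in wild type and 8.85 and 8.71 in Smad3-/- (0.34 ± 0.11, limma adjusted p = 0.0189). Without wild-type array a or b, or Smad3-/- array a, its limma adjusted p was 0.0598, 0.111 and 0.14. It was 0.066 with arrays centred on their medians, whereas quantile normalization gave a larger difference of 0.56 (adjusted p = 0.000229). Lss read 8.04 and 8.08 against 7.76 and 7.99 (-0.18 ± 0.15, limma adjusted p = 0.446), and Srebf2 8.36 and 8.41 against 8.24 and 8.45 (-0.04 ± 0.12, 95% interval -0.28 to 0.20, limma adjusted p = 0.848). The Srebf2 arrays overlapped and the Lss arrays did not.

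Calls among the other enzymes stood near the share over all genes, where 24.0% were called, 8.40% higher and 15.6% lower. On the regular diet 2 of 12 were lower, 1 was higher and 9 did not pass, with 5 called without Smad3-/- array a and 7 after quantile normalization. Sc5d was 1.95 ± 0.10 log2 units lower in Smad3-/- (-1.95, limma adjusted p = 3.95e-15) by its brightest probe set. Its other probe sets gave -1.01, called, and 0.01, not called, and the mean of its probe sets gave -0.99. Pmvk, phosphomevalonate kinase, fell by 0.89 ± 0.12 (1.06e-06), and Mvd, the next enzyme, rose by 0.58 ± 0.13 (0.00114). A dimmer probe set of Mvd gave 0.21, not called. By their brightest probe sets these neighbours therefore moved in opposite directions. Markers of several tissues differed between the same arrays, with epididymis and testis markers higher in 6 of 7, smooth muscle markers lower in 6 of 6, white adipocyte markers lower in 7 of 8 and brown adipocyte markers higher in 5 of 8. Their part in the result was not tested.

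With high fat diet, Smad3-/- arrays were lower in Hmgcs1, Idi1, Fdps and Sqle and higher in 0 of the 8 genes. Limma called 10.8% of all genes here, 4.74% higher and 6.05% lower, and the median of the 8 was -0.31 against -0.01 over all genes. Hmgcs1 read 11.00 and 11.28 in wild type and 10.06 and 10.21 in Smad3-/-, a 2.01-fold lower level (-1.005 ± 0.13, limma adjusted p = 1.8e-06). Fdps read 9.34 and 9.54 against 8.63 and 8.89 (-0.68 ± 0.12, limma adjusted p = 0.000163). Neither gene's arrays overlapped between genotypes, but with the mean of its probe sets, 1 of them dim, the Fdps difference was -0.16 and not called (adjusted p = 0.571).

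Idi1 and Sqle differed less. Idi1 read 7.10 and 7.35 in wild type and 6.83 and 6.64 in Smad3-/- (-0.49 ± 0.14, limma adjusted p = 0.0165), a call that was lost without wild-type array b (0.228) or Smad3-/- array b (0.193). Sqle read 8.56 and 8.52 against 8.13 and 8.14 (-0.40 ± 0.11, limma adjusted p = 0.0115), lost without wild-type array a (0.0706), Smad3-/- array a (0.0803) or Smad3-/- array b (0.0626). Without Smad3-/- array b, 2 of the 8 genes were called in place of 4. Insig1 (0.20 ± 0.12, limma adjusted p = 0.368), Cyp51 (-0.18 ± 0.15, 0.612), Lss (0.02 ± 0.15, 0.978) and Srebf2 (-0.21 ± 0.12, 95% interval -0.46 to 0.03, 0.328) did not pass.

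Limma called 10.8% of all genes on the high fat diet, and among the 12 other enzymes 0 were lower and 1 was higher. It was Fdft1 (0.43 ± 0.13, limma adjusted p = 0.0279), a call lost without wild-type array a (0.452) or Smad3-/- array b (0.32). Another bright probe set of Fdft1 gave 0.505, called in limma. Its dim ones gave 0.19 and 0.01, and the mean of its probe sets 0.28, none of them called. Skeletal muscle markers were higher in 8 of 8, brown adipocyte markers higher in 6 of 8, macrophage markers lower in 5 of 8, and epididymis and testis markers lower in 5 of 7 in Smad3-/-. Their part in the sterol gene differences was not tested.

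Between the diets, Hmgcs1 and Insig1 were higher on high fat diet in both genotypes, and most of the other enzymes had no call in wild type. The diet comparisons share the regular-diet and high-fat arrays with those above. In wild type, 2 of 8 genes were higher and 0 lower, where limma called 10.8% of all genes, 4.69% higher and 6.11% lower. The median of the 8 was 0.05 against 0.02 over all genes. Hmgcs1 went from 9.48 and 9.62 on regular diet to 11.00 and 11.28 on high fat diet, a 3.01-fold rise (1.59 ± 0.13, limma adjusted p = 3.19e-10). Insig1 went from 9.88 and 10.24 to 10.64 and 10.83 (0.67 ± 0.12, limma adjusted p = 0.000152). The arrays of the diets did not overlap in either gene.

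The other 6 genes did not pass in wild type. Idi1 differed by -0.35 ± 0.14 (limma adjusted p = 0.121), Lss by -0.21 ± 0.15 (0.519), Fdps by -0.17 ± 0.12 (0.519) and Cyp51 by -0.01 ± 0.15 (0.995). Sqle differed by 0.10 ± 0.11 (0.708) and Srebf2 by 0.14 ± 0.12 (95% interval -0.11 to 0.38, 0.621). Of 12 other enzymes, 1 was higher and 2 were lower in limma, where 4.69% of all genes were higher and 6.11% lower. Without wild-type regular-diet array a 0 of 12 were called, and without high-fat array a or b 1 was. Smooth muscle markers were lower in 6 of 6 on the high fat diet and epididymis and testis markers higher in 5 of 7, and their part was not tested.

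In Smad3-/- mice Insig1, Hmgcs1 and Cyp51 were higher on the high fat diet and Sqle was lower, 3 of 8 higher and 1 lower. Limma called 17.3% of all genes, 11.5% higher and 5.82% lower, and the median of the 8 was 0.17 against -0.004 over all genes. Insig1 went from 8.70 and 8.86 to 10.85 and 11.02, a 4.47-fold rise (2.16 ± 0.12, limma adjusted p = 4.56e-14). Hmgcs1 went from 9.31 and 8.77 to 10.06 and 10.21 (1.09 ± 0.13, limma adjusted p = 2.44e-07). Sqle went down from 8.85 and 8.71 to 8.13 and 8.14 (-0.64 ± 0.11, limma adjusted p = 4.54e-05). In these 3 genes the arrays of the diets did not overlap.

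Cyp51 went from 6.23 and 5.68 to 6.33 and 6.70 in Smad3-/- (0.56 ± 0.15, limma adjusted p = 0.00953). That call was lost without regular-diet array b (0.29, adjusted p = 0.324), without high-fat array b (0.37, adjusted p = 0.247) and with the mean of its probe sets (0.19, adjusted p = 0.287). Idi1 (0.35 ± 0.14, limma adjusted p = 0.0888), Fdps (-0.18 ± 0.12, 0.38), Srebf2 (-0.04 ± 0.12, 95% interval -0.28 to 0.20, 0.903) and Lss (-0.01 ± 0.15, 0.978) did not pass. Idi1 was called without regular-diet array b (0.54, adjusted p = 0.0184) and after quantile normalization (0.45, 0.0379), and Fdps after the latter (-0.32, 0.0377). Over all genes limma called 11.5% higher and 5.82% lower here. Sc5d rose by 1.45 ± 0.10 (limma adjusted p = 4.82e-12), the largest of 3 higher and 2 lower calls among 12 other enzymes, counted by limma. The mean of its probe sets gave 0.78, still called, and its other probe sets gave 0.84, called, and 0.05, not called. Without Smad3-/- regular-diet array b or high-fat array b 2 of 12 were called, and 3 without its high-fat array a, either wild-type regular-diet array or either antibody array. Skeletal muscle markers were higher in 8 of 8, white adipocyte markers higher in 7 of 8, and epididymis and testis markers lower in 6 of 7 on the high fat diet, and their part was not tested.

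**Figure D3:**
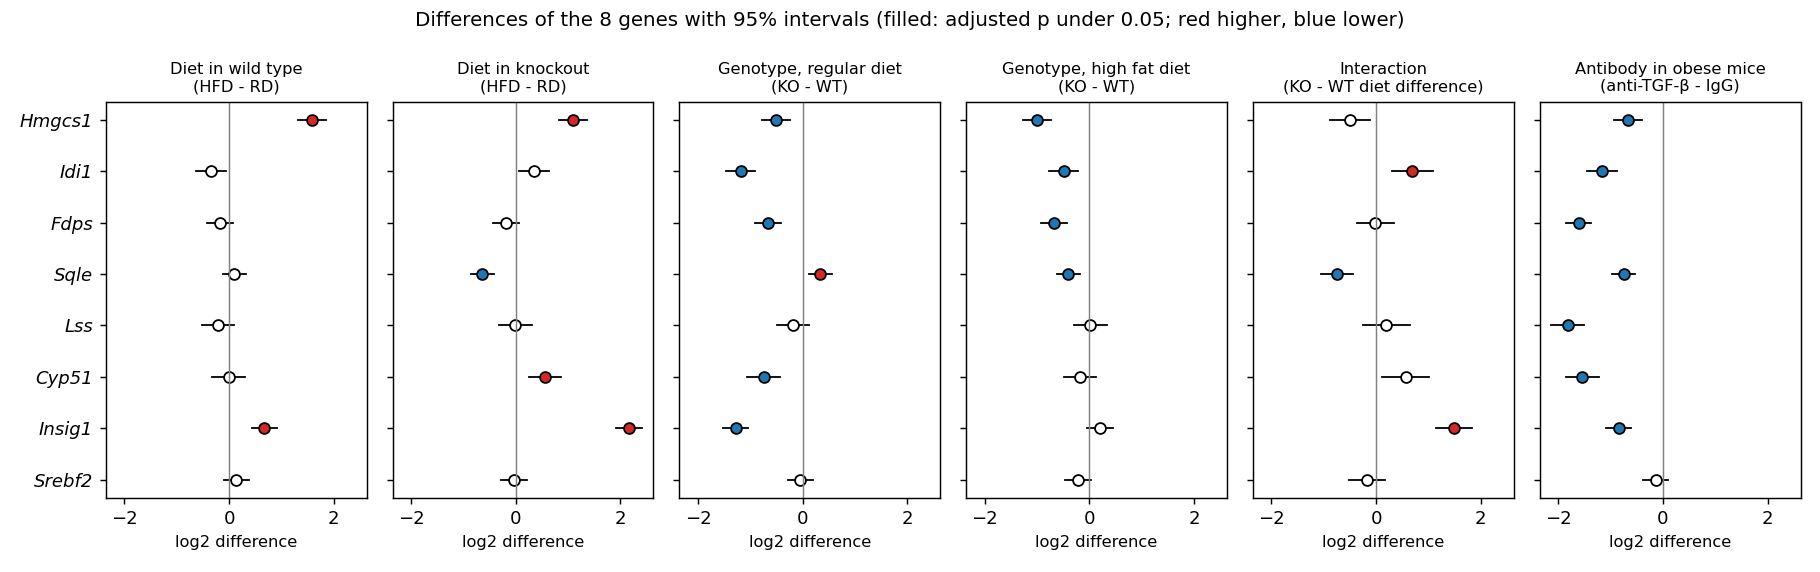
Log2 differences of the 8 genes with 95% intervals in the 6 comparisons, with filled points for adjusted p under 0.05 in limma (red higher, blue lower). Blue points make up 7 of 8 in the antibody panel, and Srebf2 is unfilled in all 6 panels.

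Whether the response to diet differed between genotypes was tested by the interaction, the diet difference in Smad3-/- minus that in wild type. It was called for 3 of 8 genes, higher for Insig1 and Idi1 and lower for Sqle, where limma called 18.8% of all genes, 12.0% higher and 6.77% lower. The median of the 8 was 0.09 against -0.03 over all genes. Insig1 rose more in Smad3-/- than in wild type, by 1.48 ± 0.17 (limma adjusted p = 8.55e-08), from a regular-diet level that was lower. On the high fat diet its 4 arrays spanned 10.64 to 11.02 across both genotypes.

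Sqle had an interaction of -0.74 ± 0.15 (limma adjusted p = 0.00048), with a diet difference of 0.10 in wild type and of -0.64 in Smad3-/-. Idi1 had one of 0.69 ± 0.19 (limma adjusted p = 0.00992), from -0.35 and 0.35, neither of which passed on its own. The Idi1 call was lost without the first array of wild type on high fat diet (0.0765), of Smad3-/- on regular diet (0.0884) or of Smad3-/- on high fat diet (0.0604), and with the mean of its probe sets (0.43, adjusted p = 0.141). For Hmgcs1 the interaction of -0.49 ± 0.19 did not pass (limma adjusted p = 0.0637), and it was called without wild-type high-fat array a (-0.63, adjusted p = 0.0301) or Smad3-/- regular-diet array b (-0.77, adjusted p = 0.000963), and after quantile normalization (-0.69, adjusted p = 0.00223). Cyp51 (0.56 ± 0.22, 0.0711) was called in limma without Smad3-/- regular-diet array a (0.84, adjusted p = 0.00506) or high-fat array a (0.75, adjusted p = 0.0251). Its adjusted p was 0.0485 with dim genes left out, 0.047 with arrays centred on their medians and 0.0453 after quantile normalization. Fdps (-0.02, adjusted p = 0.971), Lss (0.20 ± 0.22, 0.633) and Srebf2 (-0.17 ± 0.17, 0.575) did not pass in limma.

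**Figure D4:**
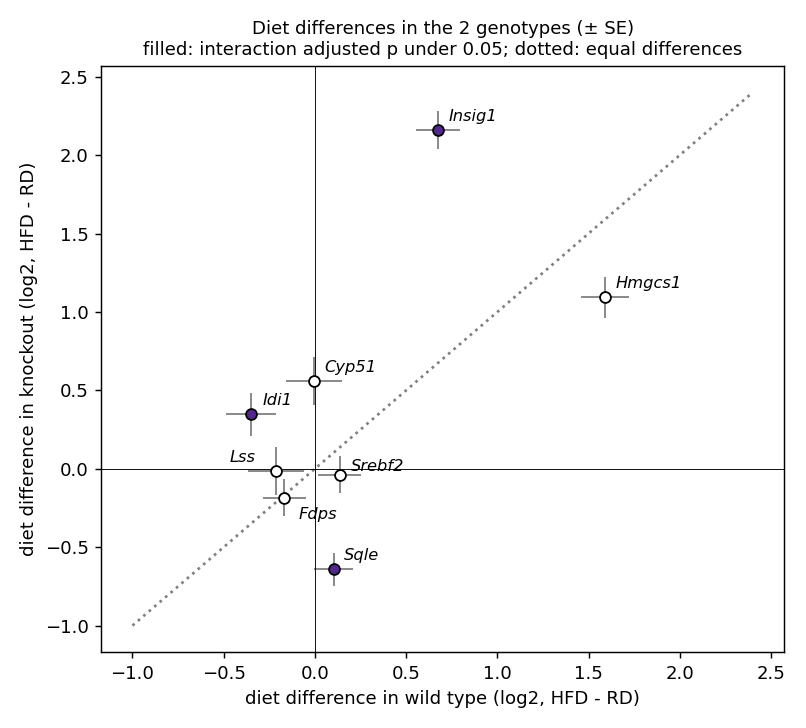
Diet differences (log2, high fat minus regular diet, ± SE) of the 8 genes in Smad3-/- (vertical) against wild type (horizontal), with filled points where the interaction passed in limma and a dotted line of equal differences. Insig1 lies far above the line at 0.67 and 2.16, Idi1 above it and Sqle below it.

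The regulators differed from each other in all of this. Srebf2 passed in 0 of 6 comparisons in limma, with an unadjusted p from 0.079 upwards, and its levels spanned 8.24 to 8.59 in the first experiment and 7.85 to 8.15 in the second. A dimmer probe set of Srebf2 was called for diet in Smad3-/- (-0.42, limma adjusted p = 0.037). Insig1 passed in 5 of 6. Srebf1, which encodes the related factor of fatty acid synthesis, was higher on the high fat diet in Smad3-/- (0.55 ± 0.11, limma adjusted p = 0.000461, and 0.29 after quantile normalization) and in wild type (0.37 ± 0.11, 0.0272). The latter call was lost without an intensity trend (limma adjusted p = 0.0885) and with the mean of probe sets (0.0575). It was also lost with only the arrays of the experiment (0.0611) and with arrays centred on their medians (0.0655). Without regular-diet array a or b or high-fat array b it was lost too, with differences of 0.40, 0.34 and 0.27. After quantile normalization Srebf1 was called higher in Smad3-/- on regular diet (0.29, limma adjusted p = 0.00414). Scap, the escort protein, ranged from 8.68 to 9.46 over the 12 arrays and passed in 0 of 6 comparisons in limma. Scap was called after quantile normalization for genotype on regular diet (0.51, adjusted p = 0.000797), diet in Smad3-/- (-0.32, 0.0388) and the interaction (-0.61, 0.00464). Without Smad3-/- regular-diet array b it was called for genotype on regular diet (0.40, 0.0464) and the interaction (-0.54, 0.0408), and the latter was also called without wild-type high-fat array a (0.0467) or Smad3-/- high-fat array b (0.032). Insig2 was 0.38 ± 0.12 lower in Smad3-/- on regular diet (-0.38, limma adjusted p = 0.0167) and higher on the high fat diet within Smad3-/- (0.43 ± 0.12, 0.00975). The former was -0.68 by the mean of probe sets and was lost without wild-type array b (0.129) or Smad3-/- array b (0.118), and the latter without array b of either diet (0.0878 and 0.277).

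Probe sets of the same gene did not always tell the same. Under the antibody 14 of 19 probe sets of the 8 genes were called, all 14 lower, where 21.7% of the 34958 probe sets naming 1 gene were called. The count was 5 for diet in wild type (5 higher, with 8.31% of all probe sets called) and 8 for diet in Smad3-/- (6 higher, 2 lower, with 12.8%). It was 11 for genotype on regular diet (1 higher, 10 lower, with 18.9%) and 7 for genotype on high fat diet (7 lower, with 7.95%). For the interaction it was 5 (2 higher, 3 lower, with 14.3%). Another probe set of Lss fell by 2.48 under the antibody (limma adjusted p = 6.29e-12) and was -0.53 for genotype on regular diet (adjusted p = 0.02), where the brightest probe set was not called. All 3 Cyp51 probe sets were lower under the antibody, the dimmer ones by -0.91 and -0.69. For Hmgcs1, 2 of its other probe sets had a called interaction (-0.55 and -0.59) and 1 had 0.32 (adjusted p = 0.179).

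The 8 genes did not vary as a single block. After the mean of each experiment was subtracted, the correlation of each gene with the mean of the other 7 over the 12 arrays was 0.93 for Cyp51, 0.82 for Fdps, 0.81 for Idi1, 0.70 for Lss, 0.57 for Hmgcs1, 0.56 for Insig1, 0.55 for Srebf2 and 0.36 for Sqle. Pairs ran from -0.26 (Insig1 and Sqle) to 0.89 (Fdps and Cyp51). The 12 arrays share groups, so these values mostly describe differences between groups. The genes outside the lists whose values lay closest to the mean of the 8 were Pam (r = 0.985), Cstb (0.981), Kirrel (0.981), Serpinf1 (0.977) and Hp (0.972), each over 12 arrays.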

How the data were processed

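Total RNA (6 ug per the labels' protocols) was hybridized to 1 Affymetrix array per sample. The deposited values are log2 levels per probe set, which per the submitters' processing notes come from RMA and Partek, with versions not given in the sources used here. No detection calls were used, and the number of arrays limits the precision. The platform annotation gives 1 gene for 34958 of 45101 probe sets, several for 932 and none for 9211. The brightest probe set over 12 arrays stood for each of 18194 genes. By gene ID, 18032 matched a RefSeq table of GRCm38.p6.

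Groups came from the labels. Tests used limma 3.58.1 under R 4.3.3 (group means of all 12 arrays, contrasts within an experiment, eBayes with an intensity trend, 6 residual and 20.4 prior degrees of freedom), and two-sided p-values were adjusted by Benjamini-Hochberg across the 18194 genes (threshold 0.05). The script was tested on simulated data. The 8 genes and all lists were chosen with earlier results of these data known. Named genes are the 8, up to 3 called genes of each further list with the smallest unadjusted p per comparison, preset genes (Scap, Srebf1, Insig2, Abca1 and Fasn among them) and the 5 genes closest to the mean of the 8. The letters a and b were not used to pair the arrays in the main fit. Same-letter deviations correlated at -0.16 to 0.17 over genes, which cannot settle whether the arrays were paired. Alternatives were no or robust trend, a filter at the 40th percentile, the mean of probe sets, single probe sets, median centring, quantile normalization, 1 experiment alone, a letter block and each array left out in turn. Fits without the regular-diet group of either genotype were chosen after seeing the data.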

Additional observations from a re-analysis of the deposited data

Results flagged for a closer look

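These genes had diet responses that differed between genotypes by the interaction test in limma, given as the log2 diet difference in Smad3-/- minus that in wild type ± SE with the adjusted p. Groups of 2 arrays allow no test for a single outlying array.

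Among the 8 genes, these were Insig1 (1.48 ± 0.17, 8.55e-08), Idi1 (0.69 ± 0.19, 0.00992) and Sqle (-0.74 ± 0.15, 0.00048). Among other sterol enzymes, they were Sc5d (1.77 ± 0.14, 8.4e-11, with 0.88 by the mean of its probe sets and 0.06 by one of them), Pmvk (0.77 ± 0.17, 0.00113) and Tm7sf2 (-0.52 ± 0.17, 0.0298), which lost its call without array a of wild type on regular diet (0.178), array b on high fat diet (0.116) or any of the 4 Smad3-/- arrays (0.0561 to 0.0924). The remaining Sc5d probe set gave 0.79, called in limma. Among genes of SREBP processing, Erlin2, a binder of sterol-regulated reductase, had -0.69 ± 0.16 (0.0023) and Rnf139, a ubiquitin ligase, 0.49 ± 0.15 (0.0208). The latter was lost without array a of either wild-type group (0.0865 on regular and 0.0543 on high fat diet), without array b of either Smad3-/- group (0.072 and 0.0847) and with the mean of its probe sets (0.16, adjusted p = 0.432). In uptake and trafficking, Aacs, which activates acetoacetate for lipid synthesis, had 1.73 ± 0.14 (1.7e-10), Npc2, a lysosomal sterol carrier, -1.17 ± 0.14 (2.08e-07) and Scarb1, the HDL receptor, 0.88 ± 0.14 (1.5e-05). By the mean of probe sets Aacs had 1.06 and Npc2 -0.67, and after quantile normalization Scarb1 had 0.51, all still called.

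In the efflux list, the values were 0.88 ± 0.16 for Lpcat3 (8.21e-05), 0.89 ± 0.16 for Nr1h3 (0.000139) and -0.87 ± 0.24 for Ch25h (0.00826, and 0.0793 without array a of wild type on regular diet). In the isoprenoid branch, Rce1 had -0.63 ± 0.16 (0.00538). Among lipogenic genes, the values were 2.02 ± 0.15 for Me1 (3.25e-11), 1.90 ± 0.15 for Acss2 (7.56e-11), 1.77 ± 0.15 for Acaca (3.6e-10) and 0.86 ± 0.14 for Fasn (2.69e-05). By the mean of probe sets Acss2 had 1.21 and Acaca 0.89, both still called. Skeletal muscle, smooth muscle, epididymis and testis, and white adipocyte markers had interactions in the same arrays, and their part was not tested.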

How the results depend on the processing

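Of 48 pairs of gene and comparison among the 8 genes, 26 were called. Of these, 19 were called in the same direction in every setting and 7 lost the call or turned in at least 1, single probe sets left aside. Of 22 uncalled pairs, 4 were called in some setting. Single probe sets turned the sign of a called difference for Hmgcs1 (0.26 for genotype on regular diet and 0.16 on high fat diet), Fdps (0.37 for genotype on high fat diet), Lss (0.24 for the antibody) and Cyp51 (-0.15 for diet in Smad3-/-), all from dim probe sets with mean log2 levels of 4.19 to 5.46. The cause was not tested.

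Leaving out single arrays gave 2 to 4 of the 8 genes for genotype on high fat diet, and quantile normalization gave 5 for the interaction. For the 12 other enzymes, the range without single arrays was 0 to 3 (diet in wild type), 2 to 5 (diet in Smad3-/-), 3 to 5 for genotype on regular diet and 0 to 1 on high fat diet. Without an intensity trend, the counts of these enzymes were 1 (diet in wild type), 2 (diet in Smad3-/-) and 0 (genotype on high fat diet), and counts of 1, 2 and 0 were found with only the arrays of the experiment. With the mean of probe sets they were 3 for diet in Smad3-/- and 0 for genotype on high fat diet. Quantile normalization gave 1 for diet in wild type, 7 for genotype on regular diet and 5 for the interaction, and the fit without wild type on regular diet gave 3 for diet in Smad3-/-.

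The replicate block left the counts of the 8 genes at 2, 4, 6, 4, 3 and 7 in the order diet in wild type, diet in Smad3-/-, genotype on regular and high fat diet, interaction and antibody. Over all genes, leaving out array a of wild type on regular diet gave 1296 calls for diet in wild type in place of 1966. Leaving out array b of Smad3-/- on high fat diet gave 2035 for diet in Smad3-/- in place of 3150.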

Other observations

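Genes of fatty acid synthesis, targets of SREBP1, were counted in the same comparisons. In wild type on the high fat diet 9 of 10 were lower and 0 higher (10.8% of all genes were called), with a median of -0.96. Elovl6, a fatty acid elongase, fell by 1.92, Acly, which supplies acetyl-CoA, by 1.56, and Acaca, acetyl-CoA carboxylase, by 1.51, and Fasn, fatty acid synthase, by 0.89. With the mean of probe sets the first 3 were -1.17, -0.91 and -0.71, still called. Within Smad3-/-, 3 of 10 were higher on high fat than on regular diet and 3 lower (17.3% of all genes called). Genotype on high fat diet had 6 of 10 higher and 1 lower (10.8% called), with Elovl6 at 1.11, or 0.62 by the mean of probe sets. On regular diet 0 were higher and 5 lower (24.0% called), with Acss2, acetyl-CoA synthetase, at -1.87 (-1.15 by the mean of probe sets) and Me1, malic enzyme, at -1.25. Under the antibody 2 were higher and 4 lower (24.3% called), with Acss2 at -1.21 and Me1 at -0.85. All calls are at an adjusted p under 0.05 in limma.

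Genes of sterol efflux, esterification and the LXR pathway, which answers sterol excess, were measured in 10 of 12 cases. On regular diet 5 of 10 were lower in Smad3-/- and 0 higher (24.0% of all genes called), among them Nr1h3, the LXR-alpha receptor (-0.80), Lpcat3, a phospholipid acyltransferase (-0.69, and -0.41 after quantile normalization), and Apoe (-0.45). Within Smad3-/-, 5 of 10 were higher on high fat than on regular diet and 0 lower (17.3% called). Among them were Lpcat3 at 0.99, Nr1h3 at 0.71 and the cholesterol exporter Abca1 at 0.62. The same diet comparison in wild type had 2 higher and 0 lower (10.8% called). Between genotypes on the high fat diet, 0 were higher and 1 was lower in Smad3-/- (10.8% called). Under the antibody, where 11.7% of all genes were called higher and 12.6% lower, 0 of 10 were higher and 2 were lower. They were Nceh1, a cholesteryl ester hydrolase, at -1.62 and Lpcat3 at -0.59.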
